A study of Mus musculus with 16 samples.

Results

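The comparison described here is that of Dicer knockout (KO) with control adrenal glands of mouse embryos at embryonic day E16.5, across all genes that could be tested. It rests on 8 of the 16 arrays of the study, 4 per genotype, taken by their labels. The KO pools were Sf1-Cre/Dicer lox/lox embryos, in which a Cre recombinase driven by the Sf1 regulatory region cuts floxed Dicer alleles. Control pools came from littermates that lacked the Cre and are called WT in the labels. The parents carried floxed Dicer alleles, and the labels do not say whether the controls carried them too. All animals were on a C57BL/6 background. Whole glands of 1 genotype were pooled within a litter, 4 litters were used, and each pool went on an Affymetrix Mouse430_2 array. Such an array reads each transcript with one or more probe sets of short oligonucleotides. The other 8 arrays, 4 control and 4 KO pools of E15.5, entered the estimate of the spread and are set beside the results near the end.

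Dicer is the enzyme that cuts hairpin precursors into mature microRNAs. A microRNA pairs with messenger RNAs mainly through its seed, the bases near its 5′ end, and lowers their stability and translation, so that loss of a microRNA tends to raise its direct targets. The steroid-making cells of the adrenal cortex depend on the nuclear receptor Sf1, encoded by Nr5a1, and it is in them that the Cre is active. The gland also holds chromaffin cells of the medulla, which make catecholamines, and a capsule, blood vessels, Schwann cell precursors and resident macrophages. In those cells Dicer is not the direct target of the Cre, as far as they do not use Sf1.

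The let-7 family is shown first, because 3 of the 12 largest rises (Nr6a1, Igdcc3 and Acvr1c) are on a list of 30 genes known or predicted as let-7 targets. Its 9 mature members in the RefSeq-derived table for GRCm38.p6 come from 11 loci and share 1 seed. Seed bases 2 to 8 are in capitals and read the same in every member, while the remaining bases differ at a few places.
let-7a-5p: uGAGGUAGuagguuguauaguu
let-7b-5p: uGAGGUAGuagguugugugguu
let-7c-5p: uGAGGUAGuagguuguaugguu
let-7d-5p: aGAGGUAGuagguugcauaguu
let-7e-5p: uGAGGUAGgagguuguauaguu
let-7f-5p: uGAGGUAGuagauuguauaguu
let-7g-5p: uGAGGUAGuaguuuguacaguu
let-7i-5p: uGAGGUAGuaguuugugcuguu
miR-98-5p: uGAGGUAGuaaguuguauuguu
Mature microRNAs were not measured on these arrays.

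Values below are RMA signals on the log2 scale, so that a difference of 1 is a doubling. A gene was tested when at least 4 of the 16 arrays read its probe set above their 40th percentile, and was called when the adjusted p of its limma test was under 0.05. The label of the tissue fits its markers: Star, the carrier of cholesterol into mitochondria, stood at 13.45, 13.34, 13.63 and 13.86 in the 4 controls and 13.65, 13.15, 13.68 and 13.80 in the 4 KO pools. The arrays also differed in ways other than genotype. Control 2 had a Gapdh 3′ minus 5′ difference of 3.25 against −0.04 to 0.43 in the other controls and 0.11 to 1.50 in the KO pools, a sign of shortened RNA. The mean level of 22 skeletal muscle genes was 10.56 there, 7.76 in control 1 and 5.44 to 7.11 in the other 6 arrays. Liver genes averaged 9.11 in control 1, 8.57 in KO 1 and 9.81 in KO 2, and 5.82 to 7.09 in the other 5. The sex makeup of the pools differed as well, as seen from 2 genes chosen after their values were seen. Xist, expressed from the inactive X chromosome of females, stood at 10.73, 10.37, 4.82 and 4.62 in the controls and 12.76, 12.19, 12.25 and 11.16 in the KO pools (difference 4.45, adjusted p = 0.148). Kdm5d, on the Y chromosome, stood at 7.53, 8.08, 8.48 and 8.51 in the controls and 3.19, 7.44, 7.41 and 7.61 in the KO pools. Little female RNA was thus read in controls 3 and 4 and little male RNA in KO 1. The parts of muscle, liver, sex and RNA quality in a given result were not tested beyond leaving arrays out.

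Beside their main values, most groups of genes are therefore followed through 7 settings. Setting A leaves out control 1, setting B control 2 and setting C both. Setting D leaves out controls 3 and 4 and KO 1, the pools with low Xist or low Y-linked genes. Setting E leaves out control 1, KO 1 and KO 2, the pools with high liver genes. Setting F keeps arrays 3 and 4 of each genotype alone, and setting G uses all arrays after each was centred on its 75th percentile. Settings D, E and F were chosen after seeing the data. A setting can also concentrate another difference. In C and F the controls left are 3 and 4, both low in Xist, whereas no KO pool is. In D the controls left are 1 and 2, which hold the liver and muscle marks and the shortened RNA. The part of this in calls kept or lost was not tested.

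**Figure D1:**
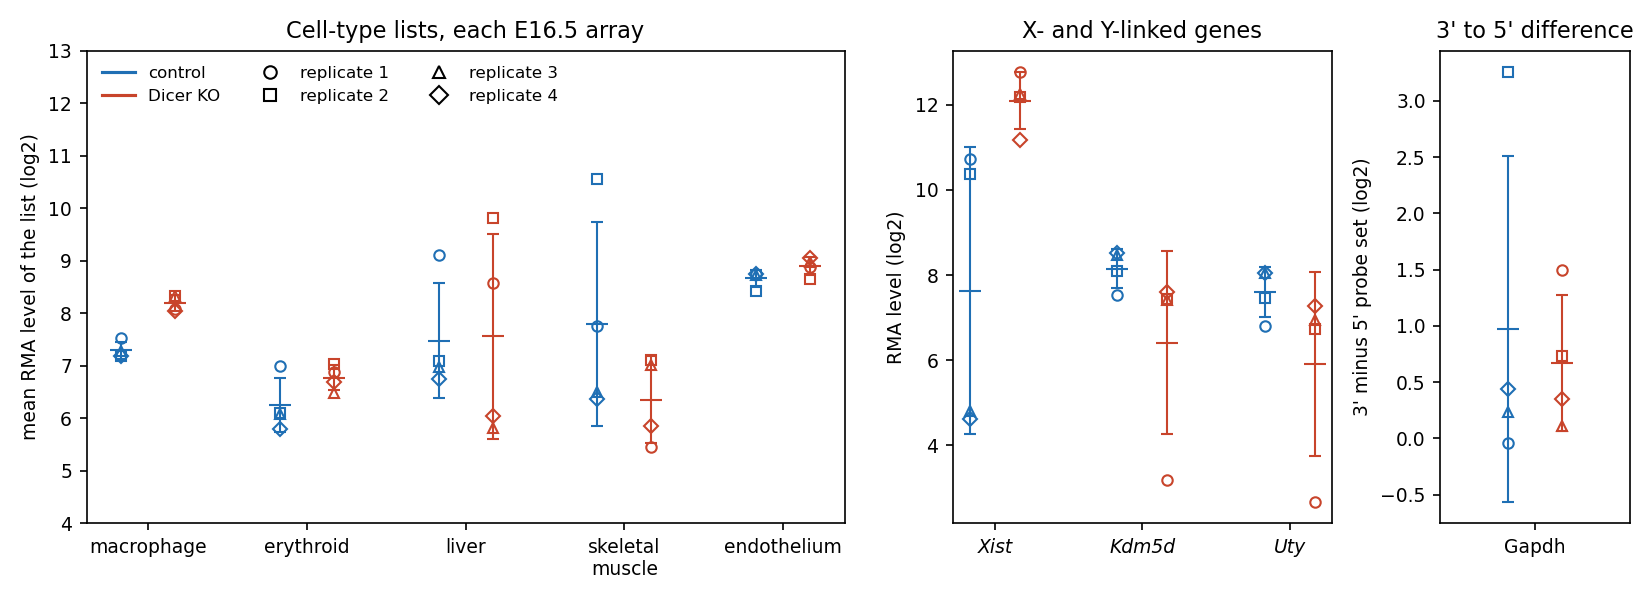
Mean level of 5 cell-type lists (left), level of Xist, Kdm5d and Uty (middle) and 3′ minus 5′ difference of the Gapdh control probe sets (right), all on the log2 scale, in the 4 control (blue) and 4 KO (red) arrays of E16.5; symbols mark the replicate, bars the mean ± SD. The macrophage list separates the genotypes without overlap, while muscle and the Gapdh difference are highest in control 2 and Xist is low in controls 3 and 4.

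Dicer1 was lower in the KO pools, by a small amount. It read 8.45, 8.83, 8.60 and 8.59 in the controls and 8.42, 8.30, 8.22 and 8.09 in the KO pools, all 4 of which lay below the lowest control. The difference was −0.36 (SE 0.11, adjusted p = 0.0414), but it was no longer called in settings B, C, D and F (adjusted p of 0.0842 to 0.1), nor when any of 6 single arrays was left out (highest adjusted p 0.127). The position of these probes relative to the deleted stretch is not stated, so this is a limited check of the labels. In whole glands, fewer cells of a type and less RNA per cell cannot be told apart, for this gene and all those below. Nr5a1 read 11.66, 10.99, 10.90 and 10.45 in controls and 11.56, 11.10, 10.87 and 11.22 in KO pools. Its groups overlapped, and the difference of 0.19 did not pass (SE 0.33, adjusted p = 0.797).

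Of 13642 genes tested, 1439 were called (10.5%), 954 higher in KO (6.99%) and 485 lower (3.56%). Counts of called genes in the lists below are to be read against these shares. The lists were made by hand with earlier results of these data known. An excess over these shares is therefore a description and no independent support. At least 2-fold changes were fewer, 123 higher (0.902%) and 85 lower (0.623%). The 4 KO values lay above all 4 controls for 1421 genes (10.4%) and below them for 649 (4.76%). The balance of rises and falls depended on the scale. The median difference over all genes was 0.08, and the mean signal over all probe sets was higher in every KO array (6.36 to 6.37) than in every control (6.31 to 6.32; exact permutation p = 0.0286, two-sided, the smallest that 4 against 4 allow). With arrays centred on their 75th percentile, which brought the median to −0.01, 447 genes were higher and 609 lower, and quantile normalization gave 606 and 570. Among called genes without overlap, whose sign no choice of arrays can turn, the 25 largest rises and 25 largest falls were singled out. All 50 were called in A, B, C, E, F and G and 49 in D, where the complement gene C1qc had an adjusted p of 0.0727. The settings reuse the arrays on which the 50 were chosen, which favours their calls, so this is no independent check. These 50 genes have 31 other probe sets, of which 23 lay above the filter, and 21 of these had the same sign, 17 with an unadjusted p under 0.05. The second probe sets of Greb1l (0.02), Fcgr1 (0.17) and Oxtr (−0.18) did not reach that, and 1 of 5 of Gja1 (−0.25) did not.

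Removing control 2, the pool with shortened RNA and muscle transcripts, raised the number of calls to 1705 (1173 higher and 532 lower), of which 1221 were among the 1439. Removing control 1 lowered it to 1169, and removing both gave 1172. Without control 1, KO 1 and KO 2, the pools with liver transcripts, 656 genes were called. Keeping arrays 3 and 4 of each genotype at E16.5, beside those of E15.5, gave 679. Without controls 3 and 4 and KO 1 the count was 930. In the order A to G, the share of all genes called higher was 5.72%, 8.60%, 6.05%, 3.98%, 3.06%, 3.36% and 3.28%, and the share called lower 2.85%, 3.90%, 2.54%, 2.84%, 1.75%, 1.61% and 4.46%. Fewer arrays also mean less power, and leaving out KO 3 alone gave 935. The parts of power and of the marks of the pools in these counts were not tested.

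**Figure D2:**
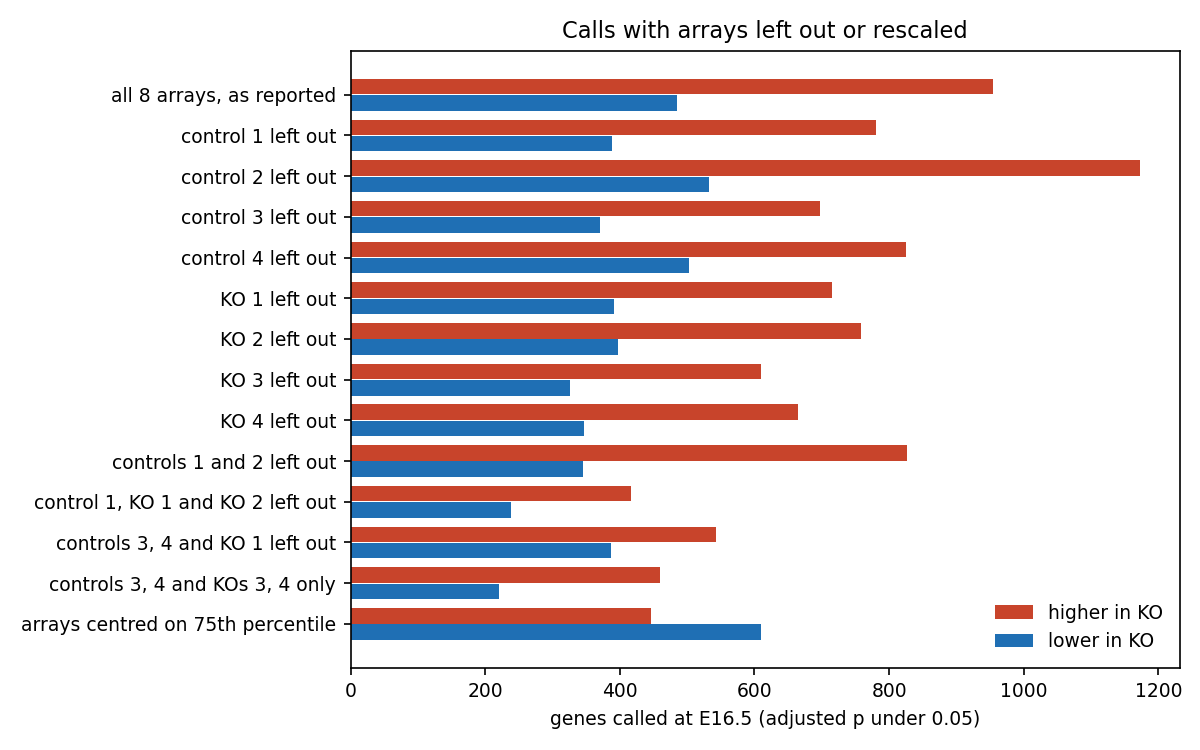
Genes called higher (red) or lower (blue) in KO at E16.5 with all 8 arrays and with arrays left out or rescaled; bars are counts out of 13642 genes. Leaving out control 2 gave the most calls among these settings, 1173 higher and 532 lower, and centring on the 75th percentile is the setting in which the falls (609) outnumber the rises (447).

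The genes known or predicted as let-7 targets held the largest rise among called genes, that of Nr6a1, and the third largest, that of Igdcc3. Of the list's 30 genes 24 were tested, 12 were called higher and 1 lower (54.2% called, against 10.5% of all genes), and the median difference was 0.44 against 0.08. Over the 7 settings the number called higher was 8 (E) to 13 (B). Nr6a1, an orphan nuclear receptor also called germ cell nuclear factor, stood at 7.75, 5.74, 5.87 and 5.71 in controls and 9.22, 8.92, 9.16 and 9.14 in KO pools. The 4 KO pools lay close together, whereas control 1 was far above the other 3 controls. The difference was 2.84 (SE 0.31, adjusted p = 1.88e-05), and 3.34 without control 1. Igdcc3, which encodes an immunoglobulin-type membrane protein, read 6.73, 7.25, 6.74 and 6.38 in controls and 9.37, 8.89, 9.19 and 9.08 in KO pools, a difference of 2.36 (SE 0.16, adjusted p = 3.35e-07). Of its 2 dimmer probe sets, 1 differed by 0.84 and the other by −0.31 (unadjusted p = 0.0208), opposite in sign. Acvr1c, the receptor of the activin and nodal family also called ALK7, read 7.43, 8.71, 7.38 and 8.16 in controls and 9.93, 9.48, 9.74 and 9.67 in KO pools and rose by 1.78 (SE 0.23, adjusted p = 6.97e-05). Its controls were spread over more than 1 unit, but none reached the KO pools.

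The further rises among these genes were smaller. The chromatin protein gene Hmga2, an oncofetal let-7 target, read 8.88, 9.40, 9.09 and 9.16 in controls and 10.47, 10.14, 10.40 and 10.27 in KO pools (1.19, SE 0.13, adjusted p = 1.94e-05). Arid3b, a DNA-binding protein, rose by 1.18 (adjusted p = 4.15e-05), and the zinc finger gene Plagl2 by 1.09 (adjusted p = 0.00031). Imprinted Peg10 rose by 0.91 (adjusted p = 0.0362), with KO 2 inside the control range, and its call was lost when any of 6 arrays was left out. Hic2, Prtg, the RNA-binding protein gene Igf2bp3, the phosphatase gene Cdc25a and Nras rose by 0.55, 0.54, 0.51, 0.40 and 0.36. The phosphatase gene Dusp4 fell by 0.42 (adjusted p = 0.039). Among those not called, E2f5 differed by 0.71, Mycn by 0.48, Myc by −0.17, Ccnd1 by −0.07 and Trim71, a let-7 target of early embryos, by −0.12. The rises thus lay in 12 of the 24 genes, and neither Myc nor Ccnd1, both regulators of growth, was among them.

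Of 17 genes of the microRNA pathway itself that were tested, 4 were called higher and 1, Dicer1, lower (29.4% called, against 10.5% of all genes), with a median difference of 0.18. Tnrc6a and Tnrc6b, partners of Argonaute in silencing, rose by 0.75 (adjusted p = 0.0119) and 0.71 (0.0138). Tarbp2, a double-stranded RNA-binding partner of Dicer, read 8.52, 8.10, 8.27 and 8.57 in controls and 8.91, 8.79, 9.03 and 9.21 in KO pools (0.62, SE 0.11, adjusted p = 0.00224). The helicase gene Mov10 rose by 0.66 (adjusted p = 0.0413, and 0.0894 without control 2). In settings C, D, E and F, 2 of these rises were called.

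**Figure D3:**
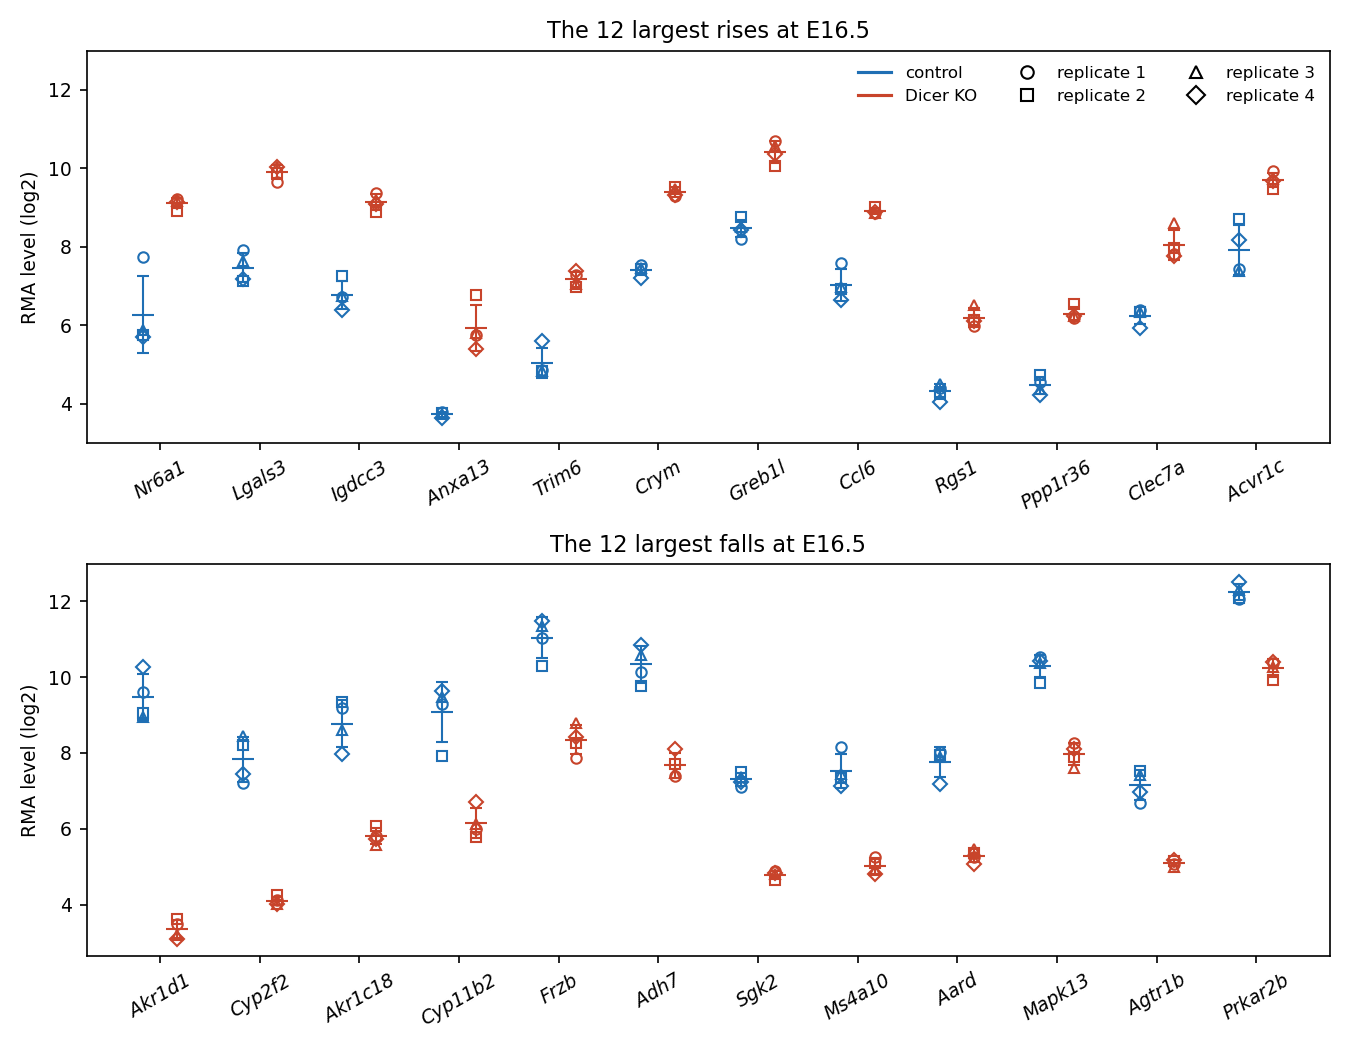
Level (log2) of the 12 genes with the largest rise (top) and the 12 with the largest fall (bottom) among called genes whose groups do not overlap, in the 4 control (blue) and 4 KO (red) arrays of E16.5; symbols mark the replicate, bars the mean ± SD. In Nr6a1 control 1 lies at 7.75 while the other controls lie at 5.71 to 5.87, and in Akr1d1 all 4 KO arrays lie below 4.

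Of all lists, that of macrophage genes held the most rises. Of 27 macrophage genes tested, 22 were called higher and none lower (81.5%, against 6.99% of all genes called higher), and their median difference was 0.92, against 0.08 over all genes. Over the 7 settings 16 (D) to 21 (B) were called higher. The mean level of the list was 7.53, 7.19, 7.28 and 7.18 in the controls and 8.08, 8.32, 8.33 and 8.04 in the KO pools, without overlap. Control 1 was the control closest to the KO pools.

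Csf1r, the receptor for colony-stimulating factor on which macrophages depend, read 10.70, 11.31, 10.66 and 10.83 in controls and 12.17, 11.95, 11.90 and 11.94 in KO pools and rose by 1.12 (SE 0.16, adjusted p = 0.000239). Adgre1, which encodes the F4/80 antigen, rose by less, from 7.86, 7.64, 7.55 and 7.54 in controls to 7.97, 8.26, 8.36 and 8.12 in KO pools (0.53, SE 0.11, adjusted p = 0.00506). The transcription factor gene Spi1 (PU.1), the master regulator of the lineage, rose by 0.46 (adjusted p = 0.0173). Ptprc, the pan-leukocyte CD45 gene, read 6.55, 6.92, 6.72 and 6.91 in controls and 7.69, 7.80, 7.99 and 7.78 in KO pools and rose by 1.04 (adjusted p = 6.75e-06). These 4 genes thus all rose, by 1.37-fold for Spi1 up to 2.17-fold for Csf1r.

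Fcgr1, the high-affinity receptor for IgG, read 6.71, 5.02, 5.85 and 5.86 in controls and 7.17, 7.78, 7.90 and 7.60 in KO pools, a rise of 1.75 (SE 0.28, adjusted p = 0.00070), the largest of the list, though its second probe set differed by 0.17. Cd68, a lysosomal glycoprotein of macrophages, rose by 1.68 (SE 0.30, adjusted p = 0.0016). The 3 subunits of complement C1q rose together, C1qa by 1.67, C1qb by 1.41 and C1qc by 1.56. In C1qa the controls ranged widely, 9.49, 7.29, 8.81 and 8.45, and control 1 stood just below the lowest KO pool, KO 1, at 9.79. The signalling adaptors Tyrobp and Fcer1g rose by 1.49 and 1.32, Aif1 by 1.48, and lysozyme Lyz2 by 1.34. Smaller rises were those of Laptm5 (1.20), the IgG receptor gene Fcgr3 (1.08), Pf4 (0.92), Hpgds (0.83), the fractalkine receptor gene Cx3cr1 (0.73), the mannose receptor gene Mrc1 (0.69), Folr2 (0.62), Cybb (0.55) and Mertk, which serves the uptake of dying cells (0.46). Among the 22, Cybb alone had a KO value inside the control range. The 5 macrophage genes not called were Lyve1 (0.50), Trem2 (0.31), Cd163 (0.26), Fcgr2b (0.26) and Cd14 (−0.14).

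Lgals3, which encodes galectin-3, a sugar-binding protein abundant in activated macrophages, had the second largest rise among called genes whose groups do not overlap. It read 7.92, 7.13, 7.63 and 7.19 in controls and 9.65, 9.88, 10.02 and 10.04 in KO pools, a difference of 2.43 (SE 0.22, adjusted p = 1.96e-06). It belongs to a list of 19 tested genes of scavenging and lipid handling, of which 9 were called higher and none lower. That is 47.4%, against 6.99% of all genes called higher. The median of the list was 0.50, and 6 (G) to 9 (B) were called higher over the settings. Clec7a, the fungal glucan receptor dectin-1, read 6.38, 6.34, 6.33 and 5.92 in controls and 7.83, 7.96, 8.60 and 7.77 in KO pools and rose by 1.80 (adjusted p = 6.65e-06). The scavenger receptors Marco and Msr1 rose by 1.13 and 0.95. Members of lipid handling rose as well, the cholesterol exporter gene Abcg1 by 0.84, the lipid droplet gene Plin2 by 0.69, Cd5l by 0.68 and lipoprotein lipase Lpl by 0.56. Of 20 lysosomal genes tested 6 were called higher (30%, against 6.99% of all genes). All 20 had a positive difference, and the median over all genes was itself above 0 (0.08). Those called were the cathepsins Ctss (1.08), Ctsc (1.01) and Ctsa (0.47), the cholesterol transporters Npc1 (0.99) and Npc2 (0.42), and Gusb (0.57). The number of lysosomal calls was 3 in G to 7 in D.

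Chemokines of myeloid cells rose too. Of 16 tested genes of chemokines, cytokines and their receptors 6 were called, all higher (37.5%, against 6.99% of all genes called higher). Their list had a median of 0.40, and 3 (D) to 7 (A, B, C and F) were called higher over the settings. Ccl6 read 7.60, 6.91, 6.96 and 6.64 in controls and 8.86, 9.03, 8.86 and 8.90 in KO pools, a rise of 1.89 (SE 0.22, adjusted p = 2.73e-05). Ccl9 rose by 1.43, Ccl12 by 1.16 and Ccl2 by 0.63, and Ccr2, the receptor through which monocytes answer Ccl2, by 0.53 (adjusted p = 0.00539). Rgs1, which dampens chemokine receptor signalling, read 4.39, 4.31, 4.50 and 4.05 in controls and 5.97, 6.14, 6.53 and 6.12 in KO pools and rose by 1.88 (SE 0.16, adjusted p = 1.44e-06). Among 5 MHC class II genes tested, which present antigen, H2-Ab1 rose by 1.24 (adjusted p = 0.000282), H2-Aa by 1.54 (0.0346) and Cd74 by 0.57 (0.0315). In both H2-Aa and Cd74 KO 1 lay within or next to the control range. H2-Aa was no longer called without control 2 (adjusted p = 0.0571). These 3 calls are 60% of the list, against 6.99% of all genes called higher, and the number was 1 (G) to 3 (A and F) over the settings.

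Other genes of immune cells among the 25 largest rises were Cd300a, an inhibitory receptor (1.75), the histidine and peptide transporter Slc15a3 of endolysosomes (1.73), Cd48 (1.64), the Toll-like receptor gene Tlr1 (1.60), the interferon-inducible Ifi207 (1.77), Glipr1 (1.64) and the B cell scaffold gene Bank1 (1.58). The controls of Rgs1, Ifi207, Tlr1 and Bank1 lay below the 40th percentile of their arrays, so their rises start from a level not told apart from background. Control 1 was the control nearest to the KO pools for 15 of the 25 largest rises. Among markers of other leukocytes that could be tested, no rise was called. Of 16 such genes with a probe set, 7 lay below the filter. Of 9 genes of T cells, neutrophils and mast cells that were tested, none was called in either direction by limma and 1 had an unadjusted p under 0.05 (lower in KO, and called in G), and the median difference was −0.03. The T cell gene Cd3e read 6.00, 5.81, 5.81 and 5.48 in controls and 5.43, 5.30, 5.21 and 5.54 in KO pools (−0.40, adjusted p = 0.075). Erythroid genes were higher in KO on average, with a median of 0.55, but 1 of 10 was called, Ermap (1.22, adjusted p = 0.0455), with none called in B, D and G and 3 called higher in A and C. Their mean level was 6.99, 6.10, 6.09 and 5.80 in controls and 6.88, 7.04, 6.48 and 6.69 in KO pools, control 1 lying among the KO pools. The 16 endothelial genes all had a positive difference (median 0.22), and none was called, while 3 had an unadjusted p under 0.05. Whether the blood content of the pools bears on the macrophage genes was not tested.

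Because the macrophage list held the most rises of all lists, promoters were searched for a PU.1-type site. PU.1 binds purine-rich sequences, and the sequence GAGGAAGT was searched on both strands of the 300 bases from 250 before to 50 after the start in the RefSeq-derived table for GRCm38.p6. It was in the promoters of 8 of 94 genes with a rise of at least 2-fold and a promoter in the table (8.51%), of 2 of 62 genes with such a fall (3.23%) and of 376 of all 10947 (3.43%). Its core GAGGAA, which every GAGGAAGT contains, was in 47.9%, 22.6% and 30.2%. The stretches of 4 of the genes are shown 5′ to 3′ on the gene's strand, with the match, or its reverse complement, in capitals.
C1qc, chr4:136893082-136893129, minus strand: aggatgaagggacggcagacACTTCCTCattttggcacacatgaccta
Ctss, chr3:95526764-95526811, plus strand: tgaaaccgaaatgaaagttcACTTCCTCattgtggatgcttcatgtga
Ctsc, chr7:88277914-88277961, plus strand: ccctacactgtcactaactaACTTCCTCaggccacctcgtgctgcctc
Tlr1, chr5:64933554-64933601, minus strand: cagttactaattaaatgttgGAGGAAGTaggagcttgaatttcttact
The Sf1-type sequence CAAGGTCA was in 4 of 94 promoters of the large rises (4.26%), 1 of 62 of the large falls (1.61%) and 1.41% of all. Its shorter forms AAGGTCA and AGGTCA, which it contains, were in 10.6%, 6.45% and 3.93% and in 27.7%, 24.2% and 14.9%. The cAMP response element TGACGTCA was in 3.19%, 3.23% and 3.37%. Over all genes called higher and all called lower, GAGGAAGT was in 5.63% and 1.57%, and CAAGGTCA in 1.74% and 0.787%. These motifs were chosen with the rises and falls known and their shares carry no test, and a match is not a bound site.

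In the cortex, the largest fall of all genes was that of Akr1d1, the 5-beta-reductase that inactivates steroid hormones. It read 9.60, 9.06, 8.95 and 10.27 in controls and 3.48, 3.62, 3.20 and 3.11 in KO pools. The difference was −6.12 (SE 0.56, adjusted p = 2.63e-06). All 4 KO values lay below the 40th percentile of their arrays (5.12 to 5.19), so the size of the fall is set by where background begins. Akr1c18, the 20-alpha-hydroxysteroid dehydrogenase that inactivates progesterone, read 9.18, 9.34, 8.60 and 7.98 in controls and 5.82, 6.08, 5.58 and 5.72 in KO pools, a difference of −2.97 (SE 0.41, adjusted p = 0.00017). It is 1 of a cluster of similar genes, which its probes may not all tell apart. Unlike Akr1d1, it stayed above the 40th percentile in every KO pool. Of the 9 genes of steroid and carbonyl reduction tested, 1 more was called, Cbr3, which rose by 0.44 (adjusted p = 0.0251).

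The steroid-making enzymes split. Of 12 tested, 4 were called lower and 1 higher (against 3.56% and 6.99% of all genes), with a median difference of −0.26; the number called lower was 2 (E) to 5 (B and G). Cyp11b2, the aldosterone synthase, read 9.28, 7.92, 9.48 and 9.63 in controls and 5.98, 5.77, 6.12 and 6.71 in KO pools, a difference of −2.93 (SE 0.40, adjusted p = 0.000136). Control 2 was the lowest control, and the gap to the KO pools remained above 1. Cyp11b1, the corticosterone-making 11-beta-hydroxylase, read 13.84, 13.73, 13.89 and 13.97 in controls and 12.49, 12.24, 11.86 and 12.50 in KO pools and fell by 1.58 (SE 0.16, adjusted p = 8.30e-06). These 2 genes are close paralogs and how far their probe sets read each other is not known here. Cyp21a1, the 21-hydroxylase, held nearly the same level in the 4 controls, 12.03, 12.11, 12.10 and 12.09, and read 11.32, 10.71, 10.83 and 11.10 in KO pools, a fall of 1.09 (SE 0.24, adjusted p = 0.00764). Hsd3b1, which makes progesterone from pregnenolone, fell by 0.40 (adjusted p = 0.00293), with controls at 13.97, 13.94, 14.08 and 14.00.

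The first steps of the pathway did not pass. Star differed by 0.00 (SE 0.15, adjusted p = 0.995). Cyp11a1, which cleaves the cholesterol side chain, read 13.48, 12.66, 13.61 and 13.52 in controls and 12.90, 12.38, 13.20 and 13.30 in KO pools. Its difference of −0.37 had an adjusted p of 0.322, and of 0.0491 without control 2, the lowest control. Hsd17b7, an enzyme of estradiol and cholesterol synthesis, was the member that rose, from 9.20, 9.49, 8.83 and 8.55 in controls to 10.42, 10.28, 9.96 and 9.90 in KO pools (1.12, SE 0.21, adjusted p = 0.0028). Cyp17a1, the 17-hydroxylase, averaged 8.87 ± 0.56 in controls and 9.61 ± 0.57 in KO pools (SD, n = 4), overlapping, and did not pass (0.74, adjusted p = 0.146). The 4 falls thus lay at steps after side-chain cleavage. Among 20 genes of cholesterol synthesis, uptake and storage 2 were called higher, Insig1, which restrains synthesis (0.74, adjusted p = 0.0153), and the squalene synthase gene Fdft1 (0.49, 0.0315). That is 10% of the list called, against 10.5% of all genes, and no gene of the list was called in D, E, F and G.

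Several genes through which the cortex receives hormonal signals fell. Of 20 genes of corticotropin receptor and cAMP signalling 5 were called lower and 2 higher (35% called, against 10.5% of all genes). Over the settings 3 (D) to 6 (G) were called lower, and 0 (E) to 2 higher. Mc2r, the corticotropin receptor, read 12.51, 11.93, 12.39 and 12.22 in controls and 11.60, 11.19, 11.60 and 11.60 in KO pools, a fall of 0.77 (SE 0.15, adjusted p = 0.00403). Its accessory protein gene Mrap fell by 0.56 (adjusted p = 0.0435), with KO 1 inside the control range. Prkar2b, a regulatory subunit of protein kinase A, read 12.06, 12.09, 12.30 and 12.50 in controls and 10.38, 9.91, 10.27 and 10.41 in KO pools and fell by 2.00 (SE 0.16, adjusted p = 8.63e-07), whereas its relative Prkar2a rose by 0.50 (adjusted p = 0.0111). The cAMP phosphodiesterases also went opposite ways, Pde8b falling by 0.84 (adjusted p = 0.0016) and Pde4d rising by 0.63 (0.0143). Agtr1b, a receptor for angiotensin II, read 6.69, 7.52, 7.42 and 6.98 in controls and 5.10 ± 0.08 in KO pools (mean ± SD, n = 4) and fell by 2.05 (SE 0.17, adjusted p = 1.10e-06). Oxtr, the oxytocin receptor, fell by 1.68, with −0.18 on a second probe set, and the gap junction gene Gja1 (connexin 43), which joins cortical cells, from 12.90, 13.24, 12.92 and 13.08 in controls to 11.57, 11.31, 11.27 and 11.17 in KO pools (−1.71, adjusted p = 3.35e-07).

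Among 17 transcription factors of the cortex, 2 were called higher, Nr6a1 and the Polycomb gene Cbx2 (0.46, adjusted p = 0.0164), and 1 lower. The one that fell was Nr0b1 (Dax1), a partner and repressor of Sf1, which read 8.02, 7.23, 8.57 and 8.06 in controls and 6.45, 6.51, 7.11 and 7.05 in KO pools (−1.19, SE 0.24, adjusted p = 0.00409). It was not called in settings D and E, with an adjusted p of 0.111 in D.

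The remaining large falls were of enzymes and signalling proteins of several kinds. Cyp2f2, a monooxygenase, read 7.21, 8.21, 8.45 and 7.46 in controls and 4.12, 4.24, 4.01 and 4.01 in KO pools, near background (−3.74, SE 0.28, adjusted p = 5.63e-07). It was 1 of 6 of 24 detoxification genes called lower (25%, against 3.56% of all genes), with none called higher. Over the settings 4 (B, C, D and F) to 6 (A and G) were called lower. The glutathione transferase Mgst2 fell by 1.87, Mgst1 by 0.46, and the drug transporters Abcb1b and Abcb1a, which are near-identical in sequence, by 1.45 and 0.77. Gsto1 fell by 0.38 (adjusted p = 0.0336, and 0.071 without control 2). Adh7, an alcohol dehydrogenase that oxidises retinol, read 10.12, 9.77, 10.58 and 10.86 in controls and 7.38, 7.72, 7.48 and 8.12 in KO pools (−2.66, SE 0.26, adjusted p = 4.50e-06).

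Sgk2, a serum- and glucocorticoid-regulated kinase, had the smallest p of all genes tested. It read 7.09, 7.50, 7.37 and 7.24 in controls and 4.89, 4.65, 4.80 and 4.82 in KO pools (−2.51, SE 0.11, adjusted p = 2.03e-09). Its KO values lay below the 40th percentile of their arrays, as did those of Bcan and 3 of the 4 of Agtr1b, so background limits the size of these falls. Hao2, a peroxisomal hydroxyacid oxidase, read 12.26, 12.50, 12.22 and 12.36 in controls and 10.51, 10.58, 10.06 and 10.24 in KO pools (−1.99, adjusted p = 4.81e-08). The kinase gene Mapk13 fell by 2.33, the gluconeogenic Fbp1 by 1.97 and Nmnat3, which makes NAD, by 1.64. Ms4a10, Aard, Tmem35a, Cstdc2, Lypd6, Pdzrn4, Elfn1 and 2810039B14Rik fell by 1.67 to 2.50. A second probe set of 2810039B14Rik differed by 0.08. A2m, the protease inhibitor alpha-2-macroglobulin, is left out of this ranking because KO 1 lay inside the control range, and was chosen after its values were seen. It read 10.99, 9.22, 10.14 and 12.21 in controls and 9.22, 7.29, 7.23 and 8.24 in KO pools (−2.65, SE 0.69, adjusted p = 0.0205), and was not called in A, D, E and F. Bcan, the proteoglycan brevican, fell by 1.89 on a probe set of a type that can cross-hybridise, as is the one used for Gja1.

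Among the large rises, several belonged to neither the macrophage nor the let-7 list. Crym, which binds thyroid hormone in the cytoplasm, read 7.53, 7.44, 7.47 and 7.21 in controls and 9.28, 9.53, 9.49 and 9.31 in KO pools (1.99, SE 0.20, adjusted p = 5.50e-06). Greb1l, a co-regulator gene of kidney development, read 8.20, 8.75, 8.49 and 8.43 in controls and 10.69, 10.06, 10.58 and 10.36 in KO pools (1.95, SE 0.14, adjusted p = 4.43e-07), with a difference of 0.02 on its second probe set. Trim6, a ubiquitin ligase, rose by 2.14 (adjusted p = 3.35e-07). Its controls other than control 4 read 4.83 to 4.85, below the 40th percentile of their arrays, so its rise starts near background. In Crym, Greb1l and Trim6 the lowest KO pool exceeded the highest control by more than 1. Anxa13, an annexin, read 3.78, 3.77, 3.74 and 3.63 in controls, below the 40th percentile, and 5.76, 6.78, 5.80 and 5.40 in KO pools, KO 2 being the highest (2.21, SE 0.23, adjusted p = 9.32e-06). Ppp1r36 rose by 1.82, Procr, the protein C receptor, by 1.70, and the transporter gene Slc45a3 by 1.57.

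**Figure D4:**
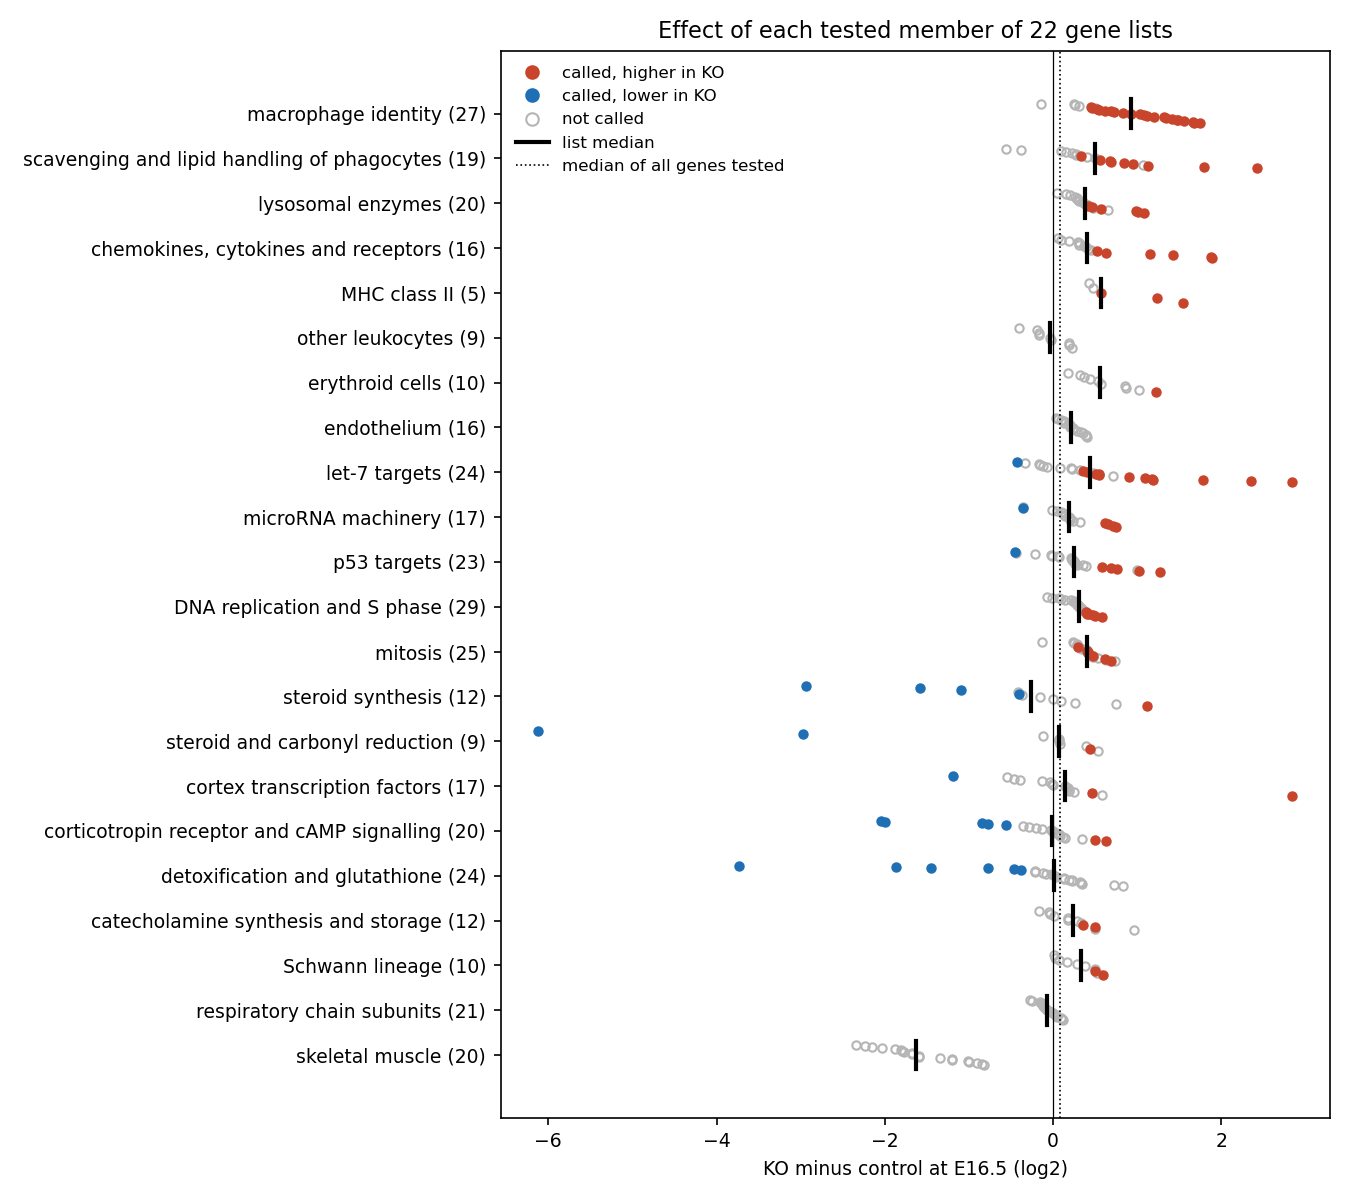
Difference between KO and control at E16.5 (log2, horizontal axis) of every tested member of 22 gene lists, with the number tested in brackets; filled points were called, black bars mark the list median and the dotted line the median of all genes tested (0.08). Macrophage genes lie to the right with 22 of 27 called, steroid-making enzymes to the left with 4 of 12 called lower, and skeletal muscle genes far to the left (median −1.63) with none called.

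Of 23 p53 targets tested, 5 were called higher and 1 lower (26.1% called, against 10.5% of all genes; median 0.25; 3 in D to 6 in B, C and E). Btg2, an antiproliferative gene, read 9.05, 9.11, 8.90 and 8.99 in controls and 10.51, 10.49, 10.10 and 10.02 in KO pools (1.27, SE 0.22, adjusted p = 0.00112), and the death receptor gene Eda2r rose by 1.03, Sesn2 by 0.77, Ccng1 by 0.69 and Zmat3 by 0.59. Cdkn1a, the p21 inhibitor of the cell cycle, read 9.01, 10.02, 8.28 and 7.85 in controls and 10.17, 9.60, 9.56 and 9.82 in KO pools. Its difference of 1.00 was not called (adjusted p = 0.0609), and control 2, the highest control, lay within the KO range. Without control 2 it was 1.41 (adjusted p = 0.000793). Trp53inp1 fell by 0.45. Of 20 genes of the Bcl2 family and the caspases, 3 were called higher, the pro-apoptotic Bcl2l11 (Bim), from 10.34, 10.87, 10.50 and 10.36 in controls to 11.69, 10.96, 11.11 and 11.44 in KO pools (0.79, adjusted p = 0.0073), Casp1 (0.66) and Casp8 (0.49). That is 15% of the list called, against 10.5% of all genes, and 1 was called higher in D and E and 2 in the other settings.

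Genes of cell division had positive differences in most members, and a minority of them passed the test. Of 29 genes of DNA replication 6 were called higher (20.7%), with 27 of 29 positive and a median of 0.31. Of 25 mitotic genes 7 were called higher (28%), with 24 positive and a median of 0.41. Over all genes 6.99% were called higher, and the median was itself above 0 (0.08). Cyclin gene Ccne1 rose by 0.58 (adjusted p = 0.013), the helicase subunit Mcm5 by 0.49 (0.00392), Aurka by 0.61 (0.0134) and Top2a by 0.42 (0.0143). Mki67, the marker of cycling cells, read 10.50, 10.82, 10.86 and 11.25 in controls and 11.37, 11.23, 11.26 and 11.24 in KO pools (0.42, adjusted p = 0.0482). These counts depended on the arrays. None of the replication genes was called in setting E and 2 in F and G, and 1 of the mitotic genes was called in C, E and F and 2 in G. Control 2 had the lowest mean of the mitotic genes (8.95, against 9.34 to 9.50 in the other controls), and control 4 lay within the KO range for Mki67. Further called members were Mcm10 (0.47), Cdt1 (0.43), Rrm2 (0.41) and Mcm2 (0.39) of replication, and Cenpe (0.69), Ccna2 (0.47), Cenpf (0.40) and Prc1 (0.29) of mitosis.

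Of 24 genes of amino acid and unfolded protein stress 4 were called higher here (16.7%, against 6.99% of all genes), and 4 in each of the 7 settings. Those called here were the cystine transporter Slc7a11 (1.36, adjusted p = 0.000733), Dnajb9 (0.77), Slc7a5 (0.74) and Atf3 (0.73).

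The lists of chromaffin and glial genes are to be read against the 6.99% of all genes called higher. Of 12 genes of catecholamine synthesis and storage 2 were called higher, the vesicular transporter Slc18a1 (0.50, adjusted p = 0.021) and Dbh, which makes noradrenaline (0.36, 0.0453). No gene of the list was called in A, C, D, E and F. Th, the first enzyme of the pathway, read 10.46, 9.77, 10.61 and 10.18 in controls and 10.37, 10.67, 10.98 and 10.99 in KO pools and did not pass (0.50, adjusted p = 0.252). Chga, the chromaffin granule protein chromogranin A, rose from 11.80, 11.72, 11.98 and 11.87 in controls to 12.50, 12.37, 12.66 and 12.60 in KO pools (0.69, SE 0.15, adjusted p = 0.00849), but the 18 genes of its list yielded no call in C, E and F. Pnmt, which makes adrenaline, had a difference of 0.96 (SE 0.42, adjusted p = 0.171), with control 2 at 9.91 and the other controls at 11.90 to 12.35. Myelin gene Mbp rose by 0.60 (adjusted p = 0.0127) and the neuregulin receptor gene Erbb3 by 0.50 (0.0414), 2 of 10 genes of the Schwann lineage.

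Signals between the capsule and the cortex changed at a few genes. Shh, which subcapsular cells send to the capsule, read 10.37, 10.43, 10.89 and 10.48 in controls and 9.30, 9.26, 9.51 and 9.38 in KO pools (−1.18, SE 0.16, adjusted p = 0.000131), while its co-receptor gene Cdon rose by 0.50 and Gli3, a transcriptional effector, by 0.37 (adjusted p = 0.0414). The fall of the list was called in all 7 settings, while neither rise was called in D, E, F and G. Frzb, a secreted Wnt antagonist, read 11.04, 10.29, 11.36 and 11.47 in controls and 7.88, 8.26, 8.80 and 8.43 in KO pools (−2.70, SE 0.30, adjusted p = 1.97e-05) and was the 1 fall among 25 Wnt genes. Rspo3, which the capsule makes to amplify Wnt signals, rose by 0.66 (adjusted p = 0.00838), and the secreted Wnt modulators Dkk2, Dkk3 and Sfrp5 by 0.64, 0.55 and 0.35. With Frzb, that is 20% of the Wnt list called, against 10.5% of all genes. Setting F left none of these Wnt rises called. In the activin pathway Fst, which binds and blocks activin, read 7.03, 7.77, 6.73 and 6.67 in controls and 8.37, 8.46, 7.96 and 7.90 in KO pools (1.12, SE 0.24, adjusted p = 0.00746), and the receptors Tgfbr2 and Acvr2b rose by 0.62 and 0.39. With Acvr1c, 4 of 21 genes of that pathway were called higher (19%, against 6.99% of all genes) and none lower. Over the settings 2 (D, E and G) to 5 (B) were called higher.

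Effects at the 2 stages rest on separate arrays. At E15.5 800 genes were called (5.86%), 503 higher (3.69%) and 297 lower (2.18%), and 644 of them were called at E16.5 too, all in the same direction. Of the 1439 genes called at E16.5, 1417 had the same sign at E15.5 (98.5%), against 79.0% of all genes tested. Their median effect in that direction was 0.42 at E15.5 and 0.56 at E16.5. Of them 81.5% were larger at E16.5, the stage on which they were chosen, against 56.3% of all genes tested. For the 800 genes called at E15.5 the order was turned, with medians of 0.62 at E15.5 and 0.60 at E16.5, 48.5% being larger at E16.5. Each set was chosen on 1 stage, which favours that stage. The difference between the stages was tested as an interaction, and limma called no gene, while 258 genes (1.89%) had an unadjusted p under 0.05.

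Genes of immune cells and adhesion had the smallest p among genes with the same sign at both stages, without passing. Rgs1 rose by 0.77 at E15.5 and by 1.88 at E16.5, a difference of 1.10 (SE 0.23, unadjusted p = 0.000169, adjusted p = 1.00). The others by the same rule were Msr1 (0.31 and 0.95), Bank1 (0.85 and 1.58), Marchf1, a ubiquitin ligase that removes MHC class II from the surface (0.63 and 1.29), and the adhesion gene Vcam1 (0.52 and 1.39), all with an adjusted p of 1.00. Of the 27 macrophage genes 25 had the larger effect at E16.5 (92.6%, against 56.3% of all genes tested). Their median was 0.61 at E15.5 and 0.92 at E16.5. At E15.5 11 were called higher, where 3.69% of all genes were, and 22 at E16.5, where 6.99% were. The let-7 list had medians of 0.40 at E15.5 and 0.44 at E16.5, with 11 genes called higher at E15.5 and 12 at E16.5. Akr1d1 fell by 4.47 at E15.5 and by 6.12 at E16.5, Cyp2f2 by 2.11 and 3.74, and Nr6a1 rose by 3.53 and 2.84.

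**Figure D5:**
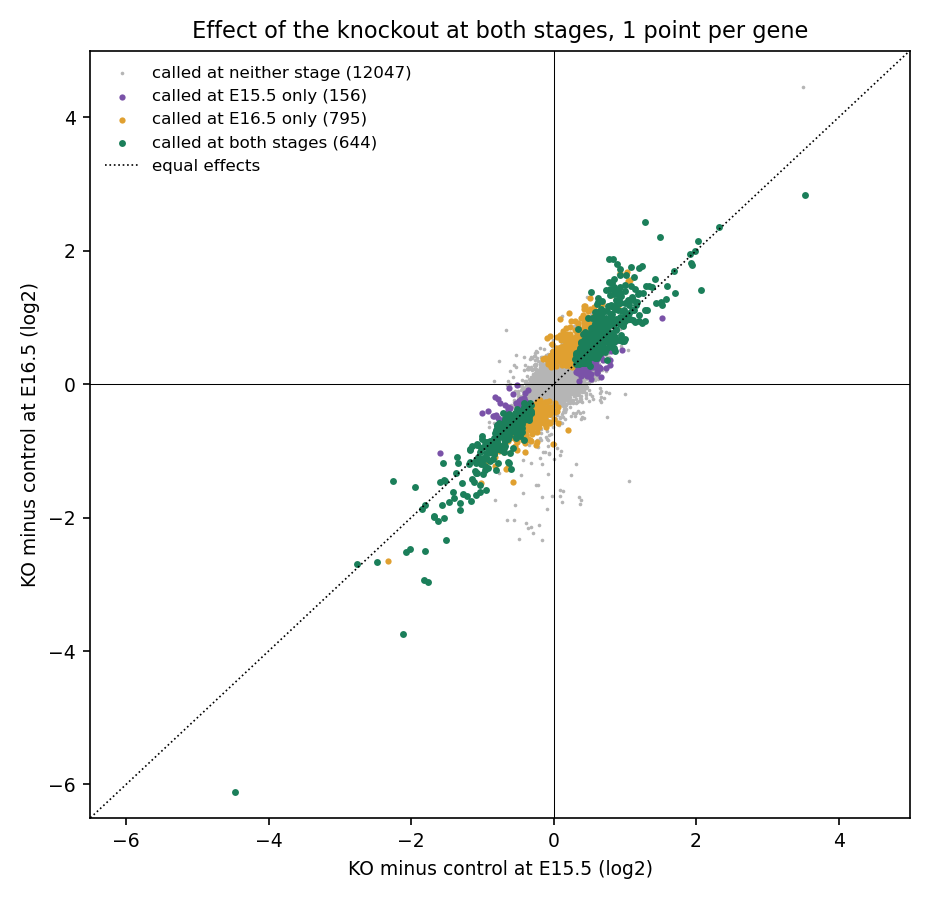
Difference between KO and control at E15.5 (horizontal) and E16.5 (vertical), both log2, for 13642 genes, coloured by the stage at which they were called; the dotted line marks equal effects. The 644 genes called at both stages lie in the quadrants of equal sign, and the grey points low on the vertical axis near 0 on the horizontal one include the muscle genes that are high in control 2.

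Control 2 touched single genes as well as counts. The 20 muscle genes tested were all lower in KO (median −1.63, −0.60 without control 2), none was called by limma and 7 had an unadjusted p under 0.05. In setting D, 7 were called lower. Acta1, skeletal muscle actin, read 10.28, 12.33, 8.30 and 8.47 in controls and 6.35, 8.95, 9.28 and 7.74 in KO pools. Of the genes called only without control 2, the largest change was that of Kera, keratocan, at 4.22, 7.72, 3.95 and 3.78 in controls and 5.06, 6.21, 6.42 and 5.31 in KO pools (1.77 without control 2, adjusted p = 0.000736), followed by Cdkn1a, Mgat4c (−1.36), C1qtnf3 (1.21) and Sgpp2 (−1.03). Of the genes called only with control 2, the 5 with the largest change were H2-Aa, the nuclear RNA Neat1 (−1.23), Ermap, Taf7 (1.17) and the muscle glycogen phosphorylase gene Pygm (−1.17). Their adjusted p without control 2 lay between 0.0512 and 0.0731, just past the threshold.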

How the data were processed

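RNA of pooled adrenal glands was measured on Affymetrix Mouse430_2 arrays. The deposited values are log2 signals that the authors made with RMA, and limma is also named, both per the submitters' processing notes; versions, and whether all arrays entered 1 RMA run, are not given in the sources used here. The 45101 probe sets hold 64 controls. Of the rest, 34945 carry 1 gene symbol in GEO's platform annotation, 932 several and 9160 none, and 34741 symbols were updated through Entrez identifiers. Where a gene had several probe sets, the brightest on average across the 16 arrays stood for it.

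Of 18193 genes, 13642 lay above the 40th percentile of non-control probe sets on at least 4 arrays and were tested; 4551 were not. A linear model with 4 group means was fitted to the 16 arrays with limma 3.58.1 (lmFit, eBayes) in R 4.3.3, and p-values were adjusted over 13642 genes (Benjamini-Hochberg, two-sided). The median SE of a difference was 0.14, and the number of arrays limits the precision. Each array is a pool of glands from 1 litter, and replicate numbers are not stated to mark a litter. The model was also run on simulated data made from group means and spreads of these arrays, with independent noise. Gene lists are hand-made, and they and the comparison were chosen with earlier results of these data known. Genes were named by a rule: the 25 largest rises and falls among called genes whose groups do not overlap, up to 8 members of each list by size with those that define it, Dicer1, Nr5a1 and Nr6a1, 5 genes for the difference between stages and 5 for each effect of control 2. Further members are given where a count is spelled out. Alternatives were other filters, scalings, fits and array sets. Sequences come from RefSeq-derived tables for GRCm38.p6, in which 10947 of the tested genes had a promoter. Coordinates are of that build.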

Additional observations from a re-analysis of the deposited data

Results flagged for a closer look

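In 126 groups of 4 arrays, 11 values stood apart from the other 3 by Dixon's gap-to-range ratio (above 0.829), which chance does in about 1 of 20 groups. Nr6a1 was 7.745 in control 1 (other controls 5.711 to 5.873), Trim6 5.595 in control 4 (4.828 to 4.846), Clec7a 5.919 in control 4 (6.331 to 6.381), and Aard 7.18 in control 4 (7.889 to 8.018). Tmem35a was 10.7 in control 2 (11.45 to 11.58). Among the KO pools, Ppp1r36 was 6.531 in KO 2 (6.196 to 6.237 in the others) and Slc15a3 6.709 in KO 2 (7.03 to 7.048). These 7 genes were named by a rule that asks for groups without overlap, so the lack of overlap in them is no further result. The other 4 values describe whole arrays. The mean of the liver genes was 9.112 in control 1 (6.741 to 7.088), and the mean of the endothelial genes 8.429 in control 2 (8.731 to 8.747). Control 2 also had a Gapdh 3′ minus 5′ difference of 3.254 (−0.041 to 0.434) and a mean signal of 6.324 (6.307 to 6.308).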

How the results depend on the processing

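The 1439 calls became 2355 with no filter, 899 with a 60th percentile filter, 817 with the E16.5 arrays alone, 4938 with limma's arrayWeights, 656 and 679 in settings E and F and 930 in D. Leaving out 1 array gave 935 (KO 3) to 1705 (control 2). Other fits gave 1050 with an allowance for the shift of dim probe sets, 1176 after quantile normalization, 1441 with a trended, robust prior and 1451 with another choice of probe set. The 145 calls summed over the lists became 92 with the E16.5 arrays alone, 308 with arrayWeights, 83 in E and 95 in F, and 105 to 142 with 1 array left out. The count of genes differing between stages went from 0 to 6 with arrayWeights. The share of called genes with the same sign at E15.5, 98.5%, was 99.2% after quantile normalization, 99.4% centred, 93.1% with arrayWeights, 99.1% with the allowance, 97.4% in D, and 97.2% to 99.5% with 1 array left out. The difference of Nr5a1, not called, turned to −0.26 in D (adjusted p = 0.744). The causes were not tested. For single genes named, 3188 values were on the same side of the threshold, 671 lost their call, 4 gained one and 1 turned. The deviations of same-numbered pools at E16.5 correlated at −0.198, 0.139, 0.253 and 0.446, above 0.1 for 3 of 4 pairs; since 1 pair did not and no label ties a number to a litter, the numbers were not read as pairs; the fit with the replicate block called 1263. Settings with fewer arrays have less power, and levels below the 40th percentile have no order.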

Other observations

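Several lists beyond those described gave few calls. The share called was 10% for collagens, 16.7% for retinoid genes and 12.5% for interferon response genes. It was 8.33% for sympathoadrenal transcription factors and 5.26% for capsule and mesenchyme genes, against 10.5% of all genes. Of 20 collagen genes tested, 1 was called in each direction, the basement membrane gene Col4a6 with a difference of −0.47 (adjusted p = 0.0264) and the fibrillar Col5a2 with 0.43 (0.0482), and neither call stood when any of 6 arrays was left out. Of 18 retinoid genes, Adh7 and Aldh1a7 (−0.60, adjusted p = 0.047) were lower and Dhrs3, which reduces retinal, was higher (0.45, 0.0259). Of 16 interferon response genes 2 were called higher, Oas1a (0.53) and Irf1 (0.38). In setting G none was called higher and 1 lower, and in D 1 was called in each direction. Of 12 sympathoadrenal transcription factors Insm1 was called (0.51, adjusted p = 0.0412), and all 12 had a positive difference. Of 19 capsule and mesenchyme genes Rspo3 was the 1 called.

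Markers of neighbouring tissues gave few calls. In these short lists the share called was 40% for kidney, 14.3% for gonad and germ cells and 20% for brown fat, against 10.5% of all genes. Of 12 kidney genes with a probe set 5 were tested, and Cited1, a transcriptional co-activator of kidney progenitors, read 6.05, 5.31, 5.50 and 5.31 in controls and 6.92, 7.47, 7.04 and 6.40 in KO pools (1.42, adjusted p = 0.000798), while Aqp2 had a difference of −0.56 (0.0143). Of 7 gonad and germ cell genes tested, Foxl2 was called (0.44, adjusted p = 0.0496). Of 5 brown fat genes tested, Pparg was called (0.55, adjusted p = 0.00303), and 1 was called higher in each of the 7 settings. None of the 9 liver genes, the 20 imprinted and growth factor genes and the 21 respiratory chain genes was called by limma. An unadjusted p under 0.05 was reached by 0, 1 and 0 of them, and their medians were 0.08, 0.15 and −0.07.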
